A study of Capra hircus with 198 samples.

Results

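Divergent long noncoding RNAs (lncRNAs) are transcripts that start close to the 5′ end of another gene and run away from it on the opposite strand. Many mammalian promoters fire in both directions, and where the outward transcript is long enough and stable enough to be annotated it is named after its neighbour with the ending -DT. Such pairs are often found at genes of developmental transcription factors, and both transcripts may use the same promoter DNA. The lncRNAs described here are the annotated goat genes whose name ends in -DT and a number and that have a row in the deposited count table. There are 191 of them, out of 14511 annotated lncRNAs and 39734 features in all, and they name 189 different neighbours (RAB33B and MIR99B name 2 lncRNAs each).

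The RNA came from 33 tissues of 6 adult female goats (Capra hircus) of the Murciano-Granadina dairy breed, with 1 total RNA library per goat and tissue and 198 libraries in all. The lactating set was made up of goats 2, 3 and 6, and the dry set of goats 54, 64 and 73. No label gives a genotype, treatment, age in years, stage of lactation or reason for the dry state, so any other difference between the 2 sets of goats cannot be told apart from lactation. The goat is the replicate throughout, with n = 6 per tissue and n = 3 per state, and levels are counts scaled to a library total of 1e6 (CPM) as mean ± SD.

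Of the 191 neighbours, 150 were protein-coding genes, 22 other lncRNAs, 7 tRNA genes, 6 miRNA genes, 5 immune receptor V segments and 1 a transcribed pseudogene. The side on which the neighbour lies could be checked for 180 pairs, in which it was placed by its symbol on the same sequence. In all 180 it lay beyond the 5′ end of the lncRNA. The other 11 had no single placed neighbour. The strand of the neighbour was not read, so the opposite orientation that the names state was not checked. The gap between the pair ran from 12 to 4869 bp with a median of 1384.5 bp, and it was under 500 bp in 50 pairs and over 3000 bp in 44. On placed chromosomes, 166 of 171 pairs had no RefSeq gene closer to the lncRNA than the one it is named after. The lncRNA genes spanned 409 to 367707 bp (median 2419) and held a median of 922 exonic bases, 184 of them in at least 2 exons of a transcript. Coordinates below are those of the deposited annotation, which names no build, and gaps are measured to genes of assembly ARS1.2, in which all 10424 lncRNAs annotated as overlapping a gene (antisense, overlapping or intronic) did overlap it.

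These lncRNAs took a small share of the data, and depth limits the weaker ones. Library totals ran from 1.31 to 8.97 M counts (median 4.63 M), so that 3 counts, the limit that a count of 0 allows, correspond to 2.29 CPM in the shallowest library and 0.335 CPM in the deepest. Together the 191 lncRNAs held 0.292% of counts on average (0.0756% to 0.967% per library). By whole profile, with the same goat left out, the best match of 174 libraries was their own tissue, and 24 matched another better. Among the latter were 6 pituitary libraries, the 3 pineal libraries of lactating goats (closest to hypothalamus or rhinencephalon), the abomasum and duodenum of goat 2 (each closest to the other), the hippocampus of goat 3, the esophagus of goat 6 and the mammary gland of goat 54 (closest to ovary). All 17 measured markers of brain, striated muscle and stratified epithelium had their highest mean in the matching set of tissues. In bulk tissue, fewer cells of a type and less RNA per cell cannot be told apart.

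Of the 191 lncRNAs, 164 reached a mean of 1 CPM in at least 1 tissue, 72 did so in all 33 tissues, 13 in exactly 1, and 27 in none. The mean level over tissues had a median of 2.75 CPM, and 16 lncRNAs lay above 50 CPM. These levels are not divided by transcript length, so they describe each gene and not an order between genes. NFKBIZ-DT1 (chr1:45922438-45938610, minus strand), 59 bp from the gene of a nuclear inhibitor of NF-kappa-B, averaged 203 CPM and ran from 67.3 ± 16.8 CPM in masseter muscle to 411.9 ± 230 CPM in adrenal cortex. PRR5L-DT1 (chr15:16088909-16165970, plus strand), beside a gene for a partner of the mTORC2 kinase complex, averaged 194 CPM, with 495 ± 114 CPM in medulla oblongata and 49.4 ± 11.2 CPM in heart. ARF4-DT1, next to a small GTPase of the Golgi, stood at 237 CPM in subcutaneous fat, and NRG1-DT1, next to the growth factor neuregulin 1, at 340 CPM in the bridge of the brainstem. ABTB2-DT1 reached 427 ± 249 CPM in liver, where its 6 libraries ran from 167 to 791 CPM with a median of 411.8.

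Tau is 0 for even expression and 1 for expression in a single tissue. Its median was 0.513 over the expressed divergent lncRNAs and 0.441 over all expressed features. Tau was at least 0.8 for 41 of the lncRNAs (25%), against 14.2% of all features. In the 141 pairs in which both genes reached 1 CPM somewhere, the median was 0.446 for the lncRNA and 0.508 for the neighbour. The lncRNA had the lower tau in 73 of them, so neither side was steadily the more restricted. The most frequent peak tissue was the cerebellar hemisphere (18 lncRNAs), followed by colon (10) and by thyroid, neck skin, pineal gland and liver (9 each). The most restricted were ranked only among lncRNAs that reached 5 CPM in some tissue. They were HMX2-DT1 and NANOS1-DT1 in kidney medulla (29.6 ± 33 and 14.5 ± 19.8 CPM), ZNF385B-DT1 in subcutaneous fat (41.7 ± 44.3 CPM), LOC108636072-DT1 in mammary gland (18.7 ± 18.3 CPM), SLC6A9-DT1 in ovary (6.86 ± 9.81 CPM) and CHRD-DT1, beside the gene of the BMP antagonist chordin, in liver (8.71 ± 4.43 CPM). In all of these but CHRD-DT1 the SD over goats was about as large as the mean or larger. For HMX2-DT1, NANOS1-DT1, LOC108636072-DT1 and SLC6A9-DT1 the difference followed the state of the goat and passed the test described further on.

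The first comparison asked whether a divergent lncRNA and its named neighbour are high in the same tissues. Over 33 tissue means, Spearman's rho between the 2 members of a pair had a median of 0.327 over 141 pairs, with quartiles of 0.0892 and 0.556 and a range from −0.387 to 0.914. The coefficient was above 0 in 115 pairs, above 0.5 in 44, above 0.8 in 8 and below −0.2 in 10. The same lncRNAs set against the neighbours of other lncRNAs on other chromosomes gave a median of 0.140 over 19130 mismatched pairs. All tissues share goats, libraries and depth, so these values are a description and carry no p. With TMM scaling, which takes out differences in composition between libraries, both medians were lower, at 0.208 for named and 0.00635 for mismatched pairs, and the named pairs still had the higher one.

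**Figure D1:**
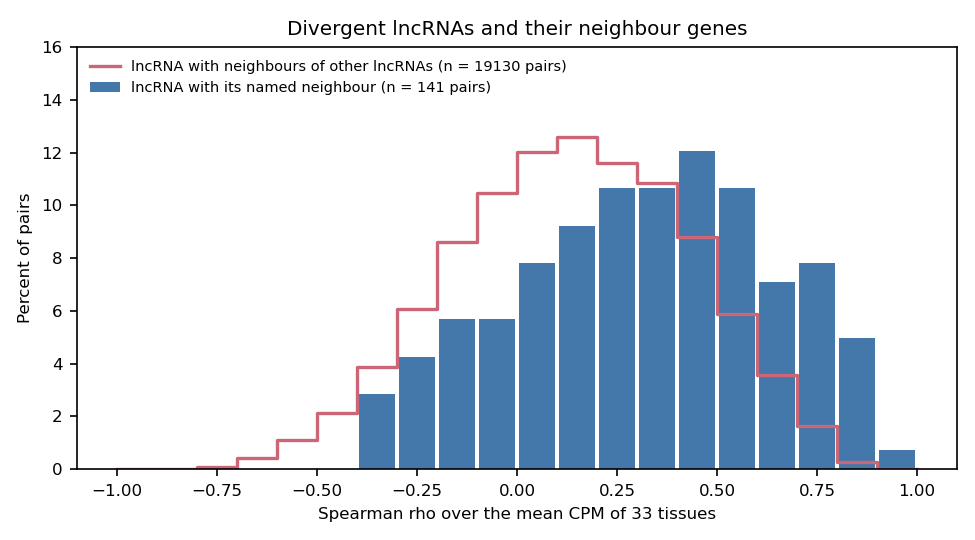
Spearman's rho over 33 tissue means (x axis) for 141 named pairs (bars, percent of pairs) and for 19130 mismatched pairs (line). The bars reach further to the right, with 8 named pairs above 0.8, while both sets include values below 0.

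The other measures of the same pairs went the same way but were small. Pearson's r on log2(CPM + 1) had a median of 0.331 for named and 0.133 for mismatched pairs. After each tissue's mean was taken off, which leaves differences between libraries of the same tissue, the median r was 0.0879 against 0.0227. It was above 0.3 in 13 pairs. Goat and library cannot be told apart in this measure. From the libraries of a single goat, the median rho lay between 0.154 and 0.262. In 115 pairs an expressed gene also flanked the lncRNA on its other side, at a median of 20776 bp against 1380 bp for the named neighbour. There the median rho was 0.343 with the named neighbour and 0.153 with the other gene, and the named neighbour had the higher rho in 69 pairs. The gap within a pair had little relation to rho (Spearman −0.0488 over 137 pairs): the median was 0.411 for the 38 pairs less than 500 bp apart and 0.295 for the 35 pairs from 3000 to 5000 bp apart. The 2 members had their highest mean in the same tissue in 19 of 141 pairs (13.5%).

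The high end was led by pairs whose members were highest in brain tissues. KCNJ3-DT1 (chr2:94805123-94805949, minus strand) lies 21 bp from KCNJ3, the gene of a G-protein-gated potassium channel subunit, and had a rho of 0.914. Its libraries of cerebellar hemisphere ran from 105.8 to 130.4 CPM (median 123.6), and KCNJ3 itself peaked there at 13.95 ± 3.88 CPM. JAKMIP3-DT1 (rho 0.843) and JAKMIP3 were both highest in hippocampus, at 39.7 and 6.21 CPM. ZNF423-DT1 (rho 0.820), beside a zinc finger transcription factor gene, peaked in the pineal gland and ZNF423 in subcutaneous fat. SLC19A3-DT1 (rho 0.818), beside a thiamine transporter gene, was highest in neck skin (129 ± 57.3 CPM) and SLC19A3 in cerebellum (116 ± 19 CPM), so a high rho did not need a shared peak.

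The low end was ranked only among the 81 pairs in which both genes reached 5 CPM in some tissue. There NFKBIZ-DT1 had a rho of −0.387 with NFKBIZ, which was highest in omasum (6.89 ± 3.35 CPM), where the lncRNA stood at 111.5 ± 21.9 CPM. Next came WDR75-DT1 (−0.359), beside the gene of a ribosome assembly factor, and GSS-DT1 (−0.341), beside the gene of glutathione synthetase. LOC108638194-DT1 (−0.277), ALDH2-DT1 (−0.247), beside a mitochondrial aldehyde dehydrogenase gene, and RHEB-DT1 (−0.240), beside the gene of a GTPase that activates mTORC1, followed. For some of these the gene on the other flank had the higher value: rho was 0.676 for GSS-DT1 with the myosin gene MYH7B, 0.668 for NFKBIZ-DT1 with NXPE3, 0.632 for ALDH2-DT1 with a tRNA gene and 0.555 for RHEB-DT1 with PRKAG2, the gene of a regulatory subunit of AMP-activated kinase. The tRNA gene was matched by symbol alone, and tRNA copies can share a symbol, so its counts may be those of another copy.

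Grouped by the kind of neighbour, developmental transcription factors stood at a median rho of 0.557. This list held 11 neighbours, 9 of them in expressed pairs, and all 9 values were above 0 (0.330 to 0.852), with the same peak tissue in 5. MEIS2-DT1 (chr10:70262022-70264994, minus strand, rho 0.852) and the homeobox gene MEIS2 both peaked in rhinencephalon, at 10.4 ± 4.10 and 26.1 ± 4.30 CPM. LHX2-DT1 (chr11:94630645-94635175, minus strand, rho 0.773) reached 41.4 ± 19.6 CPM in hippocampus and 34.3 ± 13.6 CPM in frontal neocortex, where LIM-homeobox genes pattern the cortex during development. LHX2 itself, 4869 bp away, peaked in hippocampus at only 1.59 CPM, within the 3-count limits, so this rho rests on a weakly counted neighbour. HOXA11-DT1 and HOXA11 peaked in colon (3.17 ± 1.39 and 24.1 ± 6.66 CPM), and SIX6-DT1 and SIX6, a gene of eye and pituitary development, in neurohypophysis (3.14 ± 2.37 and 22.4 ± 12.1 CPM). The lncRNA levels in the last 2 pairs lie close to the 3-count limits given above. FOXF1-DT1 (5.46 ± 3.15 CPM) and KLF4-DT1 (2.47 CPM) were also highest in colon, POU3F3-DT1 in hippocampus (10.8 CPM) and SOX17-DT1 in ovary (1.71 CPM), while SOX9-DT1 and SOX10-DT1 stayed under 1 CPM in every tissue.

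GATA4-DT1 (chr8:7560726-7568604, plus strand) starts 290 bp from GATA4, which encodes a transcription factor of heart, gut and gonad. The lncRNA was highest in abomasum (132.5 ± 87.6 CPM), duodenum (130.4 ± 27.4 CPM) and ovary (87.7 ± 83.3 CPM), and GATA4 stood at 5.91 ± 3.21, 6.89 ± 4.19 and 5.59 ± 5.55 CPM in the same tissues. The abomasum library of goat 2, which lay closest to duodenum, held 293.5 CPM, and without it the abomasum ran from 35.9 to 139 CPM with a mean of 100.3. The duodenum ran from 95.1 to 152 CPM without goat 2, whose duodenum held 165 CPM. The ranges of these neighbouring gut tissues thus overlap, and no test was made between them.

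The medians of the other lists were 0.769 over 5 zinc finger genes, 0.533 over 6 genes of membrane transport, 0.257 over 9 of 12 genes of vesicle traffic, 0.152 over 4 of 5 genes of the ubiquitin system and −0.0313 over 4 genes of RNA processing and transcription. They were 0.415 over 2 genes of kinases, phosphatases and G proteins, 0.343 for 1 gene of translation and −0.00869 over 3 genes of DNA repair, replication and the cell cycle. The 28 expressed pairs with unnamed (LOC and similar) neighbours had a median of 0.318, and the 70 with other named genes 0.316. Several lists are small, and no test was made between them.

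The next comparison set 8 brain tissues against 22 others on goat means, leaving out the pineal gland and both pituitary lobes. Of 164 lncRNAs tested, 27 were higher and 5 lower in brain (limma, adjusted p under 0.05 and at least 1 log2 unit), which is 19.5% called. Over all features 22.4% were called, with 15.2% higher and 7.29% lower, so the lncRNAs as a class were called about as often as any feature. Their median log2 difference was 0.38, against 0.06 for the neighbours and 0.13 for all features.

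KCNJ3-DT1 ran from 48.5 to 64.7 CPM over the 6 goats in brain (median 56.0) and from 1.09 to 3.55 CPM elsewhere (median 2.02). These do not overlap, and the log2 difference was 5.17 (SE 0.11, limma adjusted p = 1.02e-15). SVIP-DT1 (chr29:21387407-21400308, minus strand), beside the gene of an inhibitor of protein degradation at the endoplasmic reticulum, had 7.09 to 17.7 CPM in brain and at most 0.143 CPM elsewhere (log2 difference 4.06, SE 0.22). POU3F3-DT1 (chr11:8873093-8875583, minus strand), 50 bp from the gene of a POU-domain factor of brain and kidney, had 6.53 to 10.2 CPM in brain and 0.185 to 0.622 CPM elsewhere (3.93, SE 0.14), and its highest tissue outside brain was kidney medulla (7.85 CPM). The neighbours of these 3 rose too: KCNJ3 by 1.85, SVIP by 1.44 and POU3F3 by 1.91 on the log2 scale.

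Lower in brain were SRRM2-DT1 (log2 difference −1.38), beside a splicing factor gene, TUBB6-DT1 (−1.24), beside a beta-tubulin gene that also fell (−1.22), SEMA3B-DT1 (−1.13), beside a secreted semaphorin gene, and SLC2A11-DT1 (−1.09). SEMA3B-DT1 ran from 3.75 to 7.26 CPM in brain and from 9.36 to 25.02 CPM elsewhere, and its call was lost without goat 2 or goat 3. SLC2A11-DT1 (chr17:94163-95402, plus strand) starts 417 bp from SLC2A11, the gene of a sugar transporter of the GLUT family, and the members of this pair moved apart. The lncRNA had 0.344 to 0.945 CPM in brain and 3.47 to 6.68 CPM elsewhere, and SLC2A11 had 9.45 to 21.7 CPM in brain and 1.14 to 1.74 CPM elsewhere (3.67, SE 0.17, limma adjusted p = 1.33e-11). Of 29 called lncRNAs with a tested neighbour, 10 neighbours were called in the same direction and SLC2A11 alone in the opposite one, beside 40 of all 165 tested neighbours (24.2%) called in either direction. With TMM scaling 24 were higher and 8 lower, 29 of them among the calls above.

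**Figure D2:**
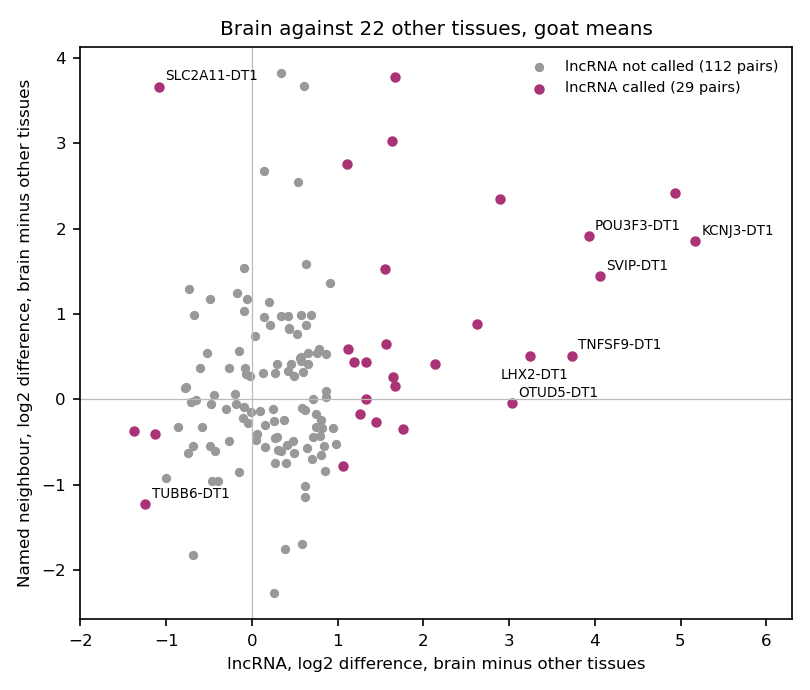
Log2 difference between brain and 22 other tissues for each lncRNA (x axis) and its named neighbour (y axis), with a point per pair, coloured where the lncRNA was called. KCNJ3-DT1, SVIP-DT1 and POU3F3-DT1 lie far to the right with raised neighbours, and SLC2A11-DT1 lies at the upper left.

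In striated muscle (heart, diaphragm and masseter) the pattern was a broad fall that depended on scaling. By library totals 2 lncRNAs were higher and 80 lower than in the other 30 tissues, 50% of those tested, against 42.6% of all features (3.64% higher, 38.9% lower). With TMM scaling 6 were higher and 18 lower, and 18.8% of all features were called. The median log2 difference of the lncRNAs was −0.96 by totals and −0.32 by TMM, beside −0.77 and −0.21 for all features. LOC102177379-DT1 and INPP1-DT1, named because they are the exceptions, changed sign between the scalings.

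SLC2A11-DT1 rose in muscle, from 1.52 to 3.90 CPM elsewhere (median 2.88) to 6.57 to 24.0 CPM (median 15.9), with a log2 difference of 3.26 (SE 0.27, limma adjusted p = 4.28e-08) and of 4.22 by TMM. SLC2A11 stood at 1.55 ± 0.666 CPM in muscle and 6.60 ± 1.04 CPM elsewhere and was not called. GSS-DT1 (chr13:63830500-63841947, plus strand) had 6.12 to 9.30 CPM in muscle and 1.75 to 3.603 CPM elsewhere (1.83, SE 0.16, and 2.83 by TMM). Among the falls, DOK4-DT1, beside the gene of a docking protein of tyrosine kinases, had 1.08 to 2.74 CPM in muscle and 17.3 to 36.2 CPM elsewhere (−2.42, and −1.51 by TMM). JAKMIP3-DT1 (−2.25), TNFSF9-DT1 (−2.12), beside a cytokine gene, and LOC102169619-DT1 (−2.10) were also lower, all with the same sign by TMM. The other tissues include those where some of these peak: rumen for DOK4-DT1, hippocampus for JAKMIP3-DT1 and cerebellar hemisphere for TNFSF9-DT1. Of 74 called lncRNAs with a tested neighbour, 20 neighbours were called in the same direction and 1 in the opposite one, beside 56 of all 165 tested neighbours (33.9%) called in either direction.

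In the forestomach and esophagus (esophagus, rumen, reticulum and omasum), which share a stratified squamous lining, 12 lncRNAs were higher and 22 lower than in the other 29 tissues. That is 20.7% of those tested, against 15.5% of all features (5.99% higher, 9.46% lower). With TMM scaling 13 were higher and 18 lower, 30 of them the same calls. DOK4-DT1 (chr18:7936506-7940763, plus strand), 4168 bp from DOK4, ran from 60.04 to 183 CPM over the 6 goats (median 104) and from 9.65 to 13.8 CPM elsewhere, a log2 difference of 3.38 (SE 0.23, limma adjusted p = 1.62e-08). It peaked in rumen at 162 CPM, while DOK4 had 7.39 ± 2.66 CPM in these tissues and 10.1 ± 2.21 CPM elsewhere and was not called. FBLN1-DT1, beside the gene of the matrix protein fibulin 1, had 10.5 to 46.7 CPM against 0.733 to 2.36 CPM (3.23, SE 0.24). FBLN1 was called as well (1.17), with overlapping goats (5.58 to 14.6 against 3.86 to 7.87 CPM), and its call was lost without goat 64.

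LRRC20-DT1 had 3.08 to 18.1 CPM in the forestomach and esophagus and 0.136 to 1.0103 CPM elsewhere (log2 difference 3.01, SE 0.38), and SRRM2-DT1 had 2.09 to 13.6 against 0.528 to 1.95 CPM (2.42, SE 0.39). Their neighbours LRRC20 and SRRM2 were not called (0.25 and −0.21). KCNJ3-DT1 was lower (−2.84), with 0.0582 to 2.25 CPM against 17.1 to 20.7 CPM, and KCNJ3 was lower too (−1.32). LOC108634769-DT1 (−2.12) and OTUD5-DT1 (−2.11), beside a deubiquitinase gene, also fell, and of their neighbours LOC108634769 was called (−1.14). Of 31 called lncRNAs with a tested neighbour, 10 neighbours were called in the same direction, beside 38 of all 165 tested neighbours (23.03%) called in either direction.

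Lactating and dry goats were then compared within each tissue. Over 33 tissues, 3011 tests of divergent lncRNAs gave 56 calls (edgeR's quasi-likelihood test, adjusted p under 0.05 within a tissue), 31 higher and 25 lower in lactation. That is 1.86% of tests, against 1.9% over all features (0.925% higher, 0.976% lower) and 65 calls in 2938 tests of neighbours, so the class was called no more often than other features. The 56 calls fell on 36 lncRNAs and 17 tissues, and 40 lncRNAs were too weak to be tested in any tissue. Of the 56 calls, 21 held without each goat in turn. The neighbour was tested beside 34 of the calls and was itself called in 6. All 6 lay in kidney medulla or ovary, where neighbours were called more often than over all tissues. There 11 of 92 tested neighbours were called in kidney medulla and 16 of 91 in ovary, whether or not their lncRNA was called. The 6 were not tested against these shares.

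Kidney medulla held 11 calls (11.7% of 94 tests, against 15.1% of all features). HMX2-DT1 (chr26:9092757-9094902, plus strand), 3865 bp from a homeobox gene of inner ear and brain, had 0.464, 0.614 and 0 CPM in lactating goats 2, 3 and 6 and 55.2, 72.8 and 48.5 CPM in dry goats 54, 64 and 73 (log2 fold change −7.61, SE 0.47, edgeR adjusted p = 3.03e-06). The dry goats were all high and the lactating goats all near 0. NANOS1-DT1 (chr26:12751752-12765210, plus strand), 169 bp from the gene of a germ-cell RNA-binding protein, went the other way, with 12.8, 24.98 and 49.4 CPM in lactating goats and 0 in all dry goats, at least 156-fold higher against 3 counts over the dry group. MAF-DT1 (chr18:7750463-7758346, plus strand), near a leucine zipper factor gene, was at 0 in all lactating goats and at 21.8, 3.19 and 11.96 CPM in dry goats, at least 57.3-fold lower in lactation. These 3 calls held without each goat in turn.

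ARMC12-DT1 had 5.34, 6.55 and 9.25 CPM in the kidney medulla of lactating goats and 28.3, 30.01 and 31.1 CPM in that of dry goats (log2 fold change −2.43, SE 0.29). Its neighbour ARMC12 had 5.66, 3.48 and 8.18 against 0.783, 1.89 and 1.26 CPM and did not pass (edgeR adjusted p = 0.0769). Neighbours that were called in the same direction as their lncRNA in this tissue were MAF (−2.98, lost without goat 6 or 64), SLC2A11 (−2.01, with SLC2A11-DT1 at −4.41), WDR75 (−3.56, with WDR75-DT1 at −0.99) and LOC102168381 (−1.01, with its lncRNA at −2.43, a pair named here after its values were seen). The calls of SLC2A11, SLC2A11-DT1 and WDR75 held without each goat. WDR75-DT1 was lost without goat 2, 6, 54, 64 or 73, LOC102168381 without goat 2, 3, 6, 54 or 64, and its lncRNA without goat 2, 6, 64 or 73. MIR99B-DT2 (3.62) and SEMA3B-DT1 (2.01) rose. The summed markers of leukocytes (9.04 to 11.46 CPM in lactating, 1.69 to 4.49 CPM in dry goats), endothelium (36.4 to 57.8 against 9.10 to 22.1 CPM) and smooth muscle (7.57 to 13.2 against 4.64 to 6.19 CPM) were also separated by state in kidney medulla, and their part in these calls was not tested.

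In ovary there were 6 calls (6.59% of 91 tests, against 11.7% of all features). MYADM-DT1 (chr18:63301357-63309127, minus strand), beside the gene of a membrane protein of myeloid cells, had 0, 2.87 and 0.921 CPM in lactating and 282, 259 and 186 CPM in dry goats (log2 fold change −7.93, SE 0.67, edgeR adjusted p = 0.000808). GATA4-DT1 had 172, 182 and 133 CPM in lactating and 20.6, 11.1 and 7.83 CPM in dry goats (3.31, SE 0.33, edgeR adjusted p = 0.00141), and this call held without each goat. GATA4 moved with it, from 0, 0.865 and 1.25 CPM in dry to 10.7, 12.6 and 8.09 CPM in lactating goats (3.33, edgeR adjusted p = 0.0157), though that call was lost without goat 2, 3, 6 or 64. SLC6A9-DT1, beside a glycine transporter gene, was at 0 in all lactating goats and at 13.0, 24.0 and 4.17 CPM in dry goats, at least 59.4-fold lower. GAS1-DT1, added after its values were seen, rose by 1.29 and its neighbour GAS1 by 1.21, which completes the 6 calls with a called neighbour. GAS1-DT1 was lost without goat 2, 3, 6 or 64 and GAS1 without goat 2, 3, 6, 54 or 64. In these ovaries the summed stratified epithelium markers (1.43 to 2.19 CPM in lactating, 17.3 to 96.4 CPM in dry goats) and endothelium markers (23.5 to 34.1 against 4.32 to 14.8 CPM) were separated by state as well, and their part was not tested.

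The pineal gland held 12 calls (11.9% of 101 tests, against 7.97% of all features). MLLT6-DT1 had 0.201, 1.46 and 0.419 CPM in lactating and 86.1, 64.5 and 29.7 CPM in dry goats (log2 fold change −6.13, SE 0.63, edgeR adjusted p = 0.00144). LOC108634769-DT1 had 1321, 185 and 227 against 9.86, 7.90 and 25.6 CPM (5.68, SE 0.99). LHX2-DT1 (4.52) and JAKMIP3-DT1 (2.33) were higher in the 3 lactating glands, all of which lay closest to brain tissues by whole profile. MLLT6-DT1 held without each goat, while LHX2-DT1 and JAKMIP3-DT1 were lost without goat 2, 54 or 73 and LOC108634769-DT1 without goat 54, 64 or 73. Summed brain markers overlapped between the states there (28.9 to 277 CPM in lactating, 110 to 152 CPM in dry goats), while those of smooth muscle, striated muscle, stratified epithelium and leukocytes did not, and their part was not tested. Without the pineal gland 44 calls stood, 26 of them higher.

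In colon 6 lncRNAs were called (6.25% of 96 tests, against 2.59% of all features). SLC2A11-DT1 had 7.34, 8.37 and 12.4 CPM in lactating and 0.215, 0.762 and 1.27 CPM in dry goats (3.39, SE 0.64, edgeR adjusted p = 0.0144), a call lost without goat 6. In diaphragm the same lncRNA went the other way, with 16.5, 8.70 and 11.2 against 43.4, 56.0 and 42.1 CPM (−2.17, SE 0.30, edgeR adjusted p = 0.00218). The markers of striated muscle (45610 to 72971 CPM in lactating, 33695 to 44683 CPM in dry goats), endothelium (34.8 to 44.5 against 3.84 to 14.3 CPM) and fibroblasts (23.4 to 26.6 against 43.2 to 70.8 CPM) were separated by state in diaphragm, and their part was not tested. LOC108634643-DT1 rose in colon by 2.52 and lost its call without goat 2, 6, 54, 64 or 73. Summed markers of leukocytes, endothelium, fibroblasts and striated muscle were separated by state in colon, with an untested part in these calls.

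Single calls elsewhere included the mammary gland, where LOC108636072-DT1 (chr5:108744256-108746574, plus strand) had 36.1, 36.2 and 33.9 CPM in lactating and 2.66, 1.95 and 1.36 CPM in dry glands (log2 fold change 4.21, SE 0.39, edgeR adjusted p = 0.00296). This was the only call among 91 divergent lncRNAs tested in that gland, beside 192 calls among 18214 features. It held without each goat, goat 54 included. In mammary gland the summed markers of striated muscle (110 to 176 CPM in lactating, 23.8 to 32.2 CPM in dry goats) and endothelium (39.7 to 77.8 against 9.21 to 37.3 CPM) and the 1 blood marker (0.224 to 1.55 against 0 to 0.205 CPM) were separated by state, and their part was not tested. In liver ABTB2-DT1 had 276, 167 and 202 CPM in lactating and 791, 577 and 547 CPM in dry goats (−1.58, SE 0.24, edgeR adjusted p = 0.0106), a call lost without goat 54. Brain markers were separated by state in liver (6.95 to 13.6 against 16.3 to 23.6 CPM), and their part was not tested. In heart GATA4-DT1 had 27.3, 44.2 and 24.5 against 8.48, 13.6 and 4.57 CPM (1.59, SE 0.33), and that call was lost without goat 2, 3 or 54. In heart 6 of 9 marker lists were separated by state, with striated muscle (12096 to 13907 against 9360 to 11292 CPM), stratified epithelium (83.2 to 105 against 21.6 to 31.7 CPM), smooth muscle (148 to 255 against 90.8 to 108 CPM) and endothelium (29.03 to 44.5 against 11.6 to 13.0 CPM) higher in lactating goats. Leukocyte (1.74 to 3.10 against 3.44 to 7.40 CPM) and fibroblast markers (17.6 to 24.0 against 40.8 to 46.0 CPM) were lower, and the part of these lists was not tested. In both pituitary lobes JAKMIP3-DT1 fell (−1.03 in adenohypophysis, −1.19 in neurohypophysis), and in neurohypophysis LOC108634769-DT1 rose from 8.37, 13.3 and 4.96 to 69.3, 49.8 and 34.3 CPM (2.64, SE 0.33). The last call held without each goat, while that of JAKMIP3-DT1 was lost without any one goat in adenohypophysis and without goat 2, 3 or 73 in neurohypophysis. Smooth muscle markers were separated by state in neurohypophysis (7.11 to 11.1 against 13.0 to 58.8 CPM) and in adenohypophysis (4.38 to 10.4 against 11.3 to 18.55 CPM), and there those of adipocytes and endothelium were as well. Their part was not tested.

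**Figure D3:**
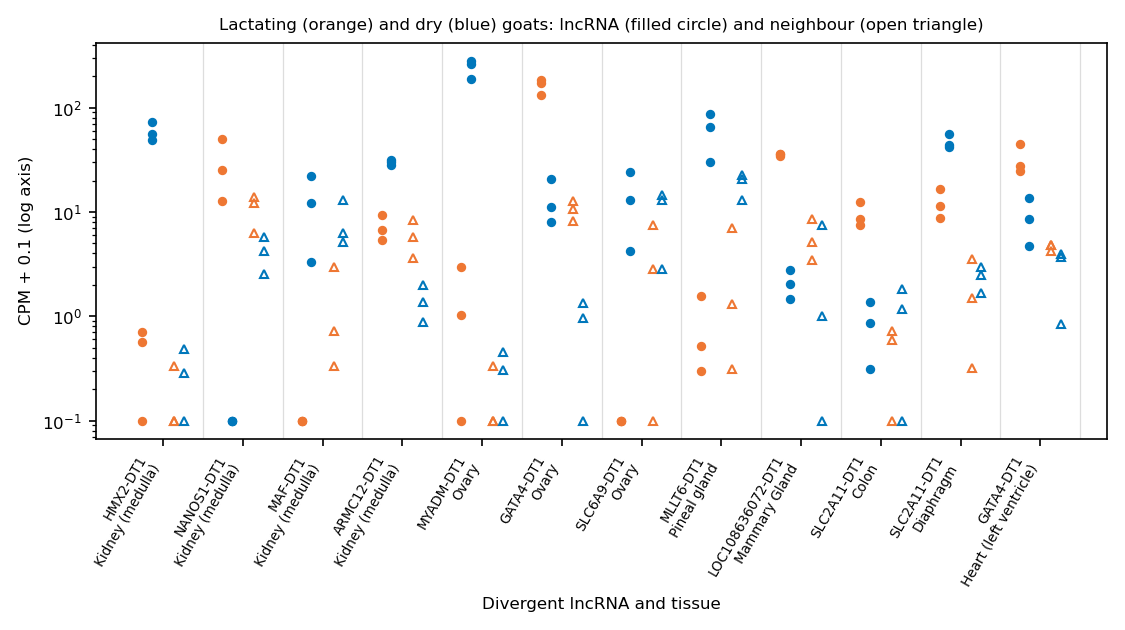
CPM + 0.1 (log axis) in lactating (orange) and dry (blue) goats for 12 called lncRNAs (filled circles, a point per goat) and their named neighbours (open triangles) in the tissue of the call. The states of each lncRNA do not overlap. Among the neighbours NANOS1, MAF, ARMC12, MLLT6 and GATA4 (in ovary and in heart) do not overlap either, and the others do.

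LOC108634530-DT1, on an unplaced sequence and 952 bp from the lncRNA gene LOC108634530, had calls in 9 tissues and in both directions. In adrenal cortex it had 29.2, 28.7 and 38.3 CPM in lactating and 6.42, 5.59 and 4.66 CPM in dry goats (log2 fold change 2.30, SE 0.26, edgeR adjusted p = 0.00131). It also rose in heart (1.70), spleen (1.93), omasum (1.84), colon (1.61) and lung (1.34). It fell in neurohypophysis, where it had 24.5, 28.0 and 29.3 against 62.2, 54.8 and 72.1 CPM (−1.08, SE 0.19, edgeR adjusted p = 0.00615), in adenohypophysis (−0.94) and in the bridge of the brainstem (−1.08). The calls in adrenal cortex, heart, lung and neurohypophysis held without each goat. That in the bridge was lost without any one goat, that in adenohypophysis without goat 2, 3, 6, 54 or 73, in colon without 2, 3 or 73, in omasum without 2, 54, 64 or 73 and in spleen without 54, 64 or 73. In adrenal cortex the markers of smooth muscle (76.1 to 202 CPM in lactating, 35.4 to 49.1 CPM in dry goats), leukocytes (1.25 to 3.87 against 0.533 to 0.913 CPM) and adipocytes (8.996 to 11.7 against 2.45 to 5.74 CPM) were separated by state. Of 9 marker lists 3 were separated in omasum, 2 in the bridge, 1 in lung and 0 in spleen, and the part of any of them was not tested. The lactating mean was the higher in 22 of 22 tissues outside brain, pituitary and pineal gland, with goats that did not overlap in 16. It was the higher in 1 of 8 brain tissues and in neither pituitary lobe.

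**Figure D4:**
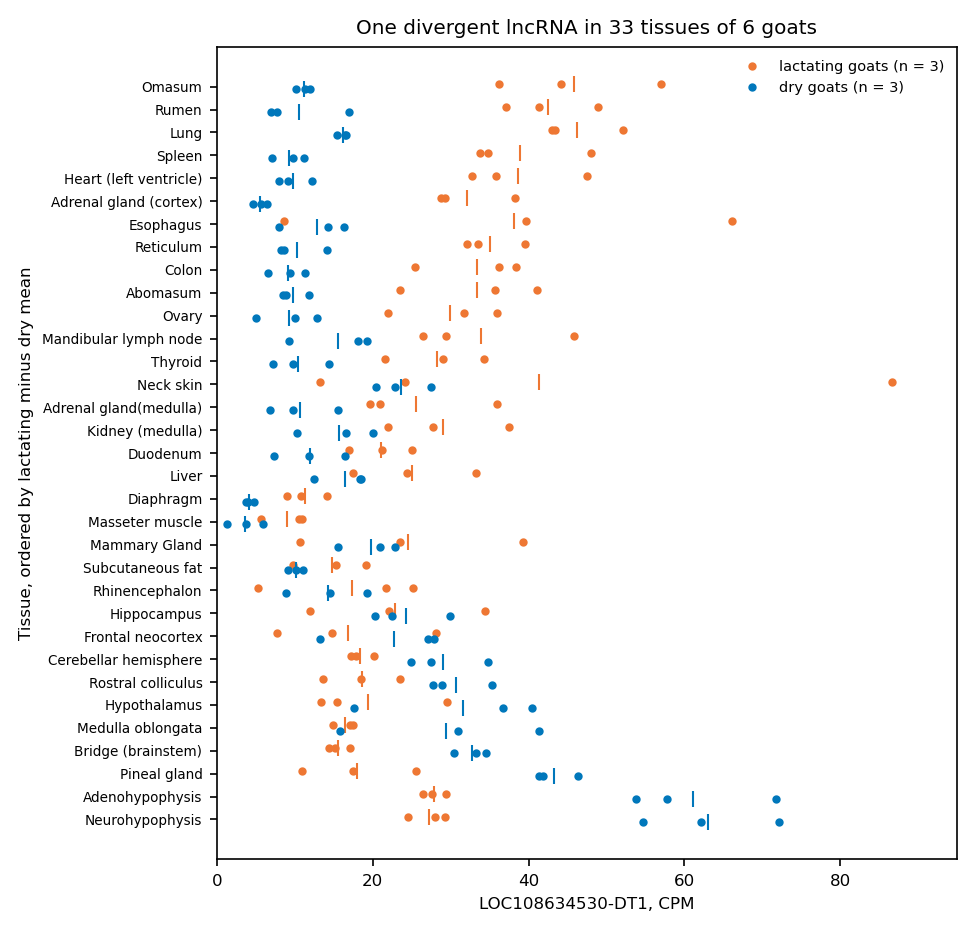
LOC108634530-DT1 in CPM (x axis) in 33 tissues ordered by the difference of state means, with a point per goat (orange lactating, blue dry) and a tick at each mean. The tissues with higher dry goats are pituitary lobes, pineal gland and brain tissues, and the order reverses in the rest of the body.

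That difference between brain and the rest was tested on goat means. In the 8 brain tissues LOC108634530-DT1 had 14.6, 16.2 and 23.8 CPM in lactating and 25.6, 26.6 and 28.3 CPM in dry goats, and in the 22 others 31.6, 34.7 and 26.2 against 11.1, 11.4 and 12.3 CPM. The state effect in brain minus that elsewhere was −1.92 (SE 0.26, limma adjusted p = 0.00919) and held without each goat and by TMM (−1.69). In all, 9 of 164 lncRNAs (5.49%) were called, all of them lower, against 6.46% of all features (0.169% higher, 6.29% lower). With TMM scaling 3 lncRNAs and 2.44% of all features were called. SHANK3-DT1 (−1.17) was called together with SHANK3 (−1.37, limma adjusted p = 0.0423), the gene of a synaptic scaffold, and both were lost without goat 2, 3, 54, 64 or 73. MIR99B-DT2 (−1.76), SEMA3B-DT1 (−1.11) and ZNF423-DT1 (−1.06) were also called, and of these MIR99B-DT2 and ZNF423-DT1 stayed called by TMM. MIR99B-DT2 was lost without goat 3, 54 or 64, SEMA3B-DT1 without goat 2, 3, 54, 64 or 73 and ZNF423-DT1 without goat 2, 3, 54 or 64, and of the 9 only LOC108634530-DT1 held in each run that left out a goat.

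Averaged over all 33 tissues per goat, 19 of 164 lncRNAs were higher and 1 lower in lactation (12.2%), against 10.7% of all features (8.74% higher, 1.92% lower). With TMM scaling 6 were higher and 2 lower, beside 8.53% of all features, and 7 of the 20 were called in both, so the number and the excess of rises depend on scaling. NFKBIZ-DT1 had 237, 231 and 223 CPM in lactating and 177, 178 and 176 CPM in dry goats (log2 difference 0.37, SE 0.04, limma adjusted p = 0.00125, and 0.25 by TMM). LOC108634530-DT1 had 26.7, 29.5 and 25.3 against 18.7, 18.596 and 20.7 CPM (0.66, SE 0.08), SHANK3-DT1 1.27, 1.74 and 1.17 against 0.455, 0.35 and 0.395 CPM (0.76, SE 0.13), and MIR99B-DT2 4.59, 5.74 and 6.24 against 3.36, 3.48 and 3.80 CPM (0.68, SE 0.12). All 4 were called in each run that left out a goat, as 6 of the 20 were. Higher as well were ARMC12-DT1 (0.57, lost without goat 64) and LOC102184409-DT1 (0.45, lost without goat 3, 6, 54 or 64). HMX2-DT1, the only fall (−0.22), was lost whichever single goat was left out, and its level outside kidney medulla was near 0. Of 17 tested neighbours 2 were called in the same direction, beside 15 of all 165 tested neighbours (9.09%) called in either direction. These 2 were ARMC12 (0.57) and CAPN12 (0.79), the last named after its values were seen.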

How the data were processed

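Total RNA was extracted with the RiboPure kit and made into strand-specific libraries (VAHTS Universal V8), per the labels' protocols. STAR, StringTie and edgeR appear, without versions, in the submitters' processing notes. The strand setting of the counting and the genome build are not given in the sources used here. The authors deposited expected counts per gene (36.9% of values above 0 are not whole), which were rounded for the fits. The deposited length table holds natural log offsets, used as an alternative scaling, and the authors' deposited tau is a fraction from 0 to 1 (median 0.545 over 169 of these lncRNAs). CPM, tau and correlations were computed here from the counts with Python 3.11.15 (pandas 2.3.3, scipy 1.17.1). The RefSeq table of ARS1.2 gave neighbours.

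Within a tissue, states were compared with edgeR 4.0.16 (R 4.3.3): TMM, filterByExpr with a minimum count of 10, quasi-likelihood test, Benjamini-Hochberg at 0.05. Sets of tissues and state over tissues were tested with limma 3.58.1 (eBayes with trend) on goat means of log2 CPM (prior count 2) for the 31306 features that reached a mean of 1 CPM in some tissue, and sets also needed 1 log2 unit. DESeq2 1.42.0 was an alternative. All tests were two-sided and adjusted over all features. On simulated data the within-tissue test (colon means, 18532 genes) recovered 88% of 4-fold and 100% of 8-fold changes. The changed genes were all well counted and had a fixed spread between libraries, so these shares do not carry over to weakly counted lncRNAs. Floors cover counting error only.

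The same goats stand in both sets of tissues, per the labels; deviations of the same goat correlated at 0.103 to 0.405. The members and the lists of neighbours were chosen with earlier results of these data known. Named lncRNAs (50) were those with the highest mean, tau, highest and lowest rho, largest differences and most state calls, and those of developmental transcription factors. Ranks by tau were made among lncRNAs, and ranks by rho among pairs, that reached 5 CPM in some tissue. The deposited CPM-named table was not used. A lncRNA that met the naming rule is not reported here.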

Additional observations from a re-analysis of the deposited data

Results flagged for a closer look

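Among the 50 named lncRNAs, 4 had a library far from the other 5 of its tissue, in the tissue where the lncRNA peaks. Chance flags about 1 in 20 groups of this size. LHX2-DT1 in hippocampus stood at 7.52 CPM in goat 3, against 34.5 to 60.3 CPM in the other goats, and that library lay closest to medulla oblongata by whole profile. LRRC20-DT1 in esophagus was at 0 CPM in goat 6, against 10.5 to 34.4 CPM, and that library lay closest to diaphragm. RHEB-DT1 in rostral colliculus was at 0.878 CPM in goat 73, against 5.42 to 9.54 CPM. MYADM-DT1 in mammary gland was at 6488 CPM in goat 3, against 0 to 25.5 CPM in the others.

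For 9 lncRNAs the state effect in brain differed from that in the 22 other tissues by a test of the difference itself (limma on goat means). The log2 differences were −1.92 for LOC108634530-DT1 (adjusted p = 0.00919), −1.76 for MIR99B-DT2 (adjusted p = 0.0161), −1.17 for SHANK3-DT1 (adjusted p = 0.0399), −1.11 for SEMA3B-DT1 (adjusted p = 0.0267) and −1.06 for ZNF423-DT1 (adjusted p = 0.0190). They were −0.98 for TRNAE-CUC_27-DT1 (adjusted p = 0.04996), −0.92 for LOC102184409-DT1 (adjusted p = 0.0292), −0.91 for MIR671-DT1 (adjusted p = 0.0176) and −0.80 for NANOS1-DT1 (adjusted p = 0.0453).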

How the results depend on the processing

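The 56 state calls within tissues were 146 with no filter on low counts and 33 to 56 without single goats (33 without goat 54). The 20 calls over all tissues were 8 by TMM and 7 to 20 without single goats (7 without goat 64, 10 without goat 73), and the 9 differences in state effect 3 by TMM, 4 with a prior count of 0.5 and 1 to 12 without single goats (1 without goat 3, 54 or 64, 3 without goat 2, 4 without goat 73). The 32 calls in brain (27 higher, 5 lower) were 51 with a prior count of 0.5 and 69 by edgeR on summed counts. On summed counts 28 were higher and 41 lower, beside 4854 and 6799 of all features, so the excess of higher lncRNAs in brain depends on the method. The 82 in muscle were 24 by TMM and 53 on summed counts, and the 34 in forestomach and esophagus 68 on summed counts. The median rho was 0.260 for pairs at 5 CPM and 0.208 by TMM, and the share with a common peak tissue 12.8% to 17.1% without single goats. LOC108634530-DT1 (0.42) and WDR75-DT1 (0.12) changed sign in muscle on summed counts. The causes were not tested. TMM shifted the median feature by up to 1.21 log2 units in a library.

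With the goat as a replicate block, the pairing being given by the labels, the calls were 32 in brain, 84 in muscle and 35 in forestomach and esophagus, and the block changed no other call. For lactating against dry goats no paired analysis was possible because different goats make up the states. Of 1423 repeats of 136 single calls under alternatives, 1170 kept their side of the threshold and direction, 251 kept only the direction and 2 reversed. Planned descriptions that were not made are levels per length, since the deposited offsets hold no length that compares genes, and motifs in promoters, for which no sequence was used here. Levels under the 3-count limits (0.335 to 2.29 CPM) are not reliable in single libraries.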

Other observations

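A pair of lncRNAs varied between libraries far more than their tissue means show. LOC108634769-DT1 ran from 0 to 1321 CPM over the 198 libraries with a median of 34.7 CPM and was above 100 CPM in 52 of them. MYADM-DT1 was at 0 in 48 libraries and above 100 CPM in 4, among them the 3 dry ovaries described above, and the mammary gland of goat 3 held 6488 CPM.

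Where an expressed gene also flanked the lncRNA on its other side, the named neighbour had the higher rho in 69 of 115 pairs. A pair of the others is given here, chosen after the values were seen. TNFSF9-DT1 had a rho of 0.86 with the beta-tubulin gene TUBB4A on its other flank and 0.738 with TNFSF9, which reached at most 1.13 CPM. DOK4-DT1, high in forestomach and esophagus without DOK4, had 0.632 with LOC106504012 on its other flank and 0.246 with DOK4.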
